A study of Gallus gallus with 20 samples.

Results

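Transcripts of 8 genes that carry out triglyceride assembly, lipid droplet coating and lipolysis were followed across 20 liver libraries of laying hens of the Guangxi Ma breed, a local chicken of China. The genes were given as a list by function (GPAM, AGPAT2, LPIN1, LPIN2, DGAT2, MOGAT1, PLIN2 and PNPLA2), all 8 of the 8 were among the 21749 genes of the table, and all 8 were among the 12808 genes tested. Hens were sampled at week 32 and, split into high and low layers, at weeks 50 and 72, which gave 5 groups of 4 libraries. The labels give no treatment or genotype beyond the breed, they mark the week 32 hens as high layers although the design text names no class at that age, and whether each library came from its own hen is left unstated. The p-values therefore measure only the spread between these libraries, which may be technical.

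In birds the liver is the main site of fatty acid synthesis, and in laying hens it exports triglyceride in very low density lipoprotein bound for the yolk. Triglyceride is built on glycerol phosphate: GPAM adds the first acyl chain, AGPAT2 adds the second to give phosphatidate, lipins remove the phosphate to give diacylglycerol, and DGAT2 adds the last acyl chain. MOGAT1 makes diacylglycerol from monoacylglycerol instead. Triglyceride that is not exported is held in lipid droplets, which PLIN2 coats, and PNPLA2 (adipose triglyceride lipase) starts its breakdown. Roles of the enzymes are known mostly from mammals.

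Levels are in transcripts per a fixed total of all transcripts (TPM), which is per transcript length, so levels may be compared between genes. PLIN2 was the most abundant of the 8 genes in 14 libraries, GPAM in 4 and AGPAT2 in 2. Mean levels over the 20 libraries were 217.7 TPM for PLIN2, 149 TPM for GPAM, 72.9 TPM for AGPAT2, 72.1 TPM for PNPLA2, 42.3 TPM for LPIN1 and 36.1 TPM for LPIN2. Both acyltransferase genes of the DGAT2 family were far lower, with 4.43 TPM for MOGAT1 and 2.29 TPM for DGAT2, and DGAT2 was among the lowest 2 of the 8 in all 20 libraries. DGAT1, another acylation gene of the wider pathway list, was not among the genes of the deposited data, so its level is unknown. All of the 8 genes were above 0 in every library.

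No gene of the 8 passed in any of the comparisons. With limma on log2(TPM + 1) and Benjamini-Hochberg adjustment over all 12808 genes at 0.05, 0 of 8 were called in the test of any difference among the 5 groups (background 0.00781% of genes called), and 2 of 8, DGAT2 and MOGAT1, had an unadjusted p under 0.05 (background 8.88%). For single genes the level is given in every library, except LPIN2 and PNPLA2, for which ranges and group means are given. The reason is that the spread inside the groups was as large a feature of these genes as the differences between them.

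**Figure D1:**
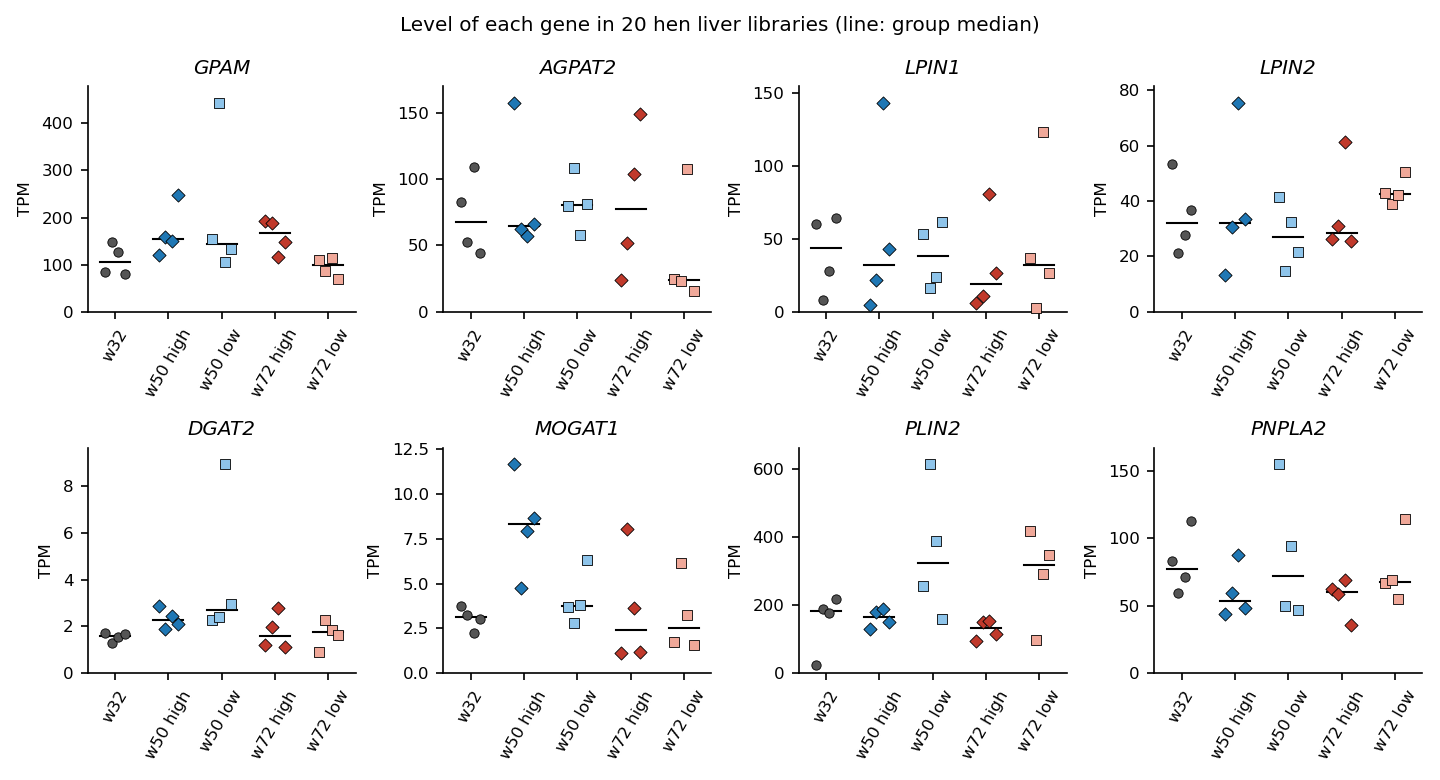
Level of each of the 8 genes in TPM (vertical axes, linear from 0) in the 4 libraries of each of the 5 groups, with the group median as a line. The groups overlap for most genes, MOGAT1 and DGAT2 at week 50 with high laying lie above week 32, and single libraries stand far from their group for GPAM (443.6 TPM), DGAT2 (8.92 TPM) and PLIN2 (25.7 TPM).

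The liver label was borne out by hepatocyte genes: albumin (ALB) ranged from 5194 to 34919 TPM and transferrin (TF) from 9663 to 24379 TPM. Among the 10 hepatocyte markers only CPS1 was low, at 0.589 to 8.85 TPM. The next lowest, SERPINC1, ran from 358 to 1127 TPM. Of 6 fat cell markers, ADIPOQ (0.314 to 1.42 TPM) and FABP4 (0.258 to 2.32 TPM) were low in all 20 libraries, while LPL ran from 0 to 20.9 TPM, PLIN1 from 3.17 to 94.5, CIDEC from 21.8 to 119.7 and PLIN4 from 14.0 to 276 TPM. Listed totals per library ran from 764047 to 852815 TPM, and pairs of libraries correlated with Spearman rho of 0.898 to 0.965 (190 pairs, tested genes). The 3 libraries farthest from the rest were replicate 1 of week 50 high (median rho 0.928), replicate 3 of week 50 low (0.923) and replicate 2 of week 72 low (0.923). In week 72 low layers, replicates 1, 2 and 4 had VTG2, the major vitellogenin transcript, at 725, 95.1 and 241 TPM, while replicate 3 had 13572 TPM, within the 12212 to 16071 TPM of week 72 high layers. These are whole pieces of tissue, so fewer cells of a type and less RNA per cell cannot be told apart.

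GPAM, the mitochondrial enzyme of the first acylation step (chromosome 6, 27407836 to 27457816, GRCg7b), was the gene of the 8 whose week 72 groups separated. It had 193, 187, 117 and 148 TPM in week 72 high replicates 1 to 4 and 110.4, 86.7, 114 and 70.0 TPM in the low libraries. All 4 high libraries lay above all 4 low ones, by a narrow margin between 117 and 114 TPM, and such separation in this direction was seen in 1.94% of all genes tested. Low replicate 3, which kept a high VTG2 level, was on the low side for GPAM. The log2 difference was 0.75 ± 0.35 (SE, 4 libraries per group), with a 95% confidence interval of 0.02 to 1.49, an unadjusted p = 0.0456 and an adjusted p = 0.929 with limma.

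At week 50, GPAM levels were 119.7, 159, 150.1 and 248 TPM with high laying and 154, 443.6, 105 and 134 TPM with low laying. The value of low replicate 2 was far above the other 19 libraries, and the groups overlapped. The difference was -0.11 ± 0.35 (interval -0.84 to 0.63), and 0.34 without that library. Week 32 had 84.5, 149, 128 and 79.2 TPM, overlapping all other groups. By mean level the order was week 50 low (209 ± 158 TPM, SD, n = 4), week 50 high (169 ± 55.4), week 72 high (161 ± 35.8), week 32 (110.2 ± 33.9) and week 72 low (95.2 ± 20.7), and neighbours in this order overlapped in range, with week 72 high above week 32 by more than the larger SD. The test of whether the laying difference changed with age gave 0.86 ± 0.50 (unadjusted p = 0.1003, adjusted p = 0.99997).

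AGPAT2, which acylates lysophosphatidate (chromosome 17, 8343637 to 8351623), had 24.7, 23.1, 108 and 15.4 TPM in week 72 low replicates 1 to 4. Replicates 1, 2 and 4 were thus low and replicate 3 high, the same 3 against 1 as for VTG2. In week 72 high layers it had 23.8, 52.0, 104 and 149 TPM. High replicate 1, with VTG2 at 12212 TPM, had an AGPAT2 level in the range of low replicates 1, 2 and 4. The relation of AGPAT2 to VTG2 was not tested. The groups overlapped, and the log2 difference of 1.06 ± 0.55 (interval -0.08 to 2.20) had an unadjusted p = 0.0675 and an adjusted p = 0.946 with limma. Without week 72 low replicate 3 it was 1.64, and without high replicate 4 it was 0.67.

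In the other 3 groups AGPAT2 stayed between 44.2 and 157 TPM. Week 32 had 82.4, 52.6, 109 and 44.2 TPM, week 50 high 157, 62.7, 57.5 and 66.2 TPM, and week 50 low 79.6, 109, 57.8 and 81.1 TPM. No library of these 12 was as low as the 4 lowest libraries at week 72. The week 50 difference between high and low layers was -0.03 ± 0.55 (interval -1.17 to 1.12). Mean levels were 85.9 TPM in week 50 high, 82.1 in week 72 high, 81.8 in week 50 low, 72.1 in week 32 and 42.7 in week 72 low, and no neighbours differed by as much as the larger SD. Over the 20 libraries AGPAT2 went opposite to the summed hepatocyte markers (10 of 10 in the table; Spearman rho = -0.72, and -0.44 after group means were removed), which ranged from 80591 to 147420 TPM in week 72 low and from 57734 to 84214 TPM in week 50 low. DGAT2 also went opposite to this sum, with rho = -0.51, and -0.55 after group means were removed. The part of this in the AGPAT2 and DGAT2 values was not tested.

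The lipins, phosphatidate phosphatases that also act as transcriptional coregulators in mammals, differed from each other in how steady they were. LPIN1 (chromosome 3, 97090032 to 97161520) had 60.5, 8.38, 27.7 and 64.3 TPM at week 32, and 4.90, 21.8, 143.5 and 43.1 TPM at week 50 with high laying. It had 53.7, 16.4, 23.6 and 61.7 TPM at week 50 with low laying. Each of these groups thus held both high and low libraries. Week 72 high had 6.17, 11.0, 81.1 and 26.6 TPM and week 72 low had 37.0, 2.98, 124 and 27.0 TPM, again with both in each group.

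From its lowest to its highest library LPIN1 spanned 48.2-fold, and within week 72 low alone 41.6-fold. Its SD within groups, 1.60 on the log2(TPM + 1) scale, was larger than that of 99.6% of the tested genes. LPIN2 (chromosome 2, 100615990 to 100655786) spanned 5.75-fold, from 13.1 to 75.6 TPM. Its within-group SD of 0.64 was still larger than that of 87.5% of the tested genes. Its narrowest group was week 72 low, where the 4 libraries lay between 39.0 and 50.4 TPM while LPIN1 in them ran from 2.98 to 124 TPM. The ratio of LPIN1 to LPIN2 ranged from 0.0764 to 2.93 and was over 1 in 10 of the 20 libraries.

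Neither lipin differed between laying classes beyond this spread. The high minus low difference of LPIN1 was -0.19 ± 1.01 at week 50 (interval -2.30 to 1.91) and -0.36 ± 1.01 at week 72 (interval -2.46 to 1.74). For LPIN2 it was 0.30 ± 0.41 at week 50 (interval -0.56 to 1.17) and -0.36 ± 0.41 at week 72 (interval -1.22 to 0.51). By mean level LPIN1 was ordered week 50 high, week 72 low, week 32, week 50 low and week 72 high (53.3, 47.7, 40.2, 38.9 and 31.2 TPM), and no neighbours differed by as much as their SD. The same held for LPIN2, ordered week 72 low, week 50 high, week 72 high, week 32 and week 50 low (43.6, 38.3, 36.0, 34.9 and 27.7 TPM).

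**Figure D2:**
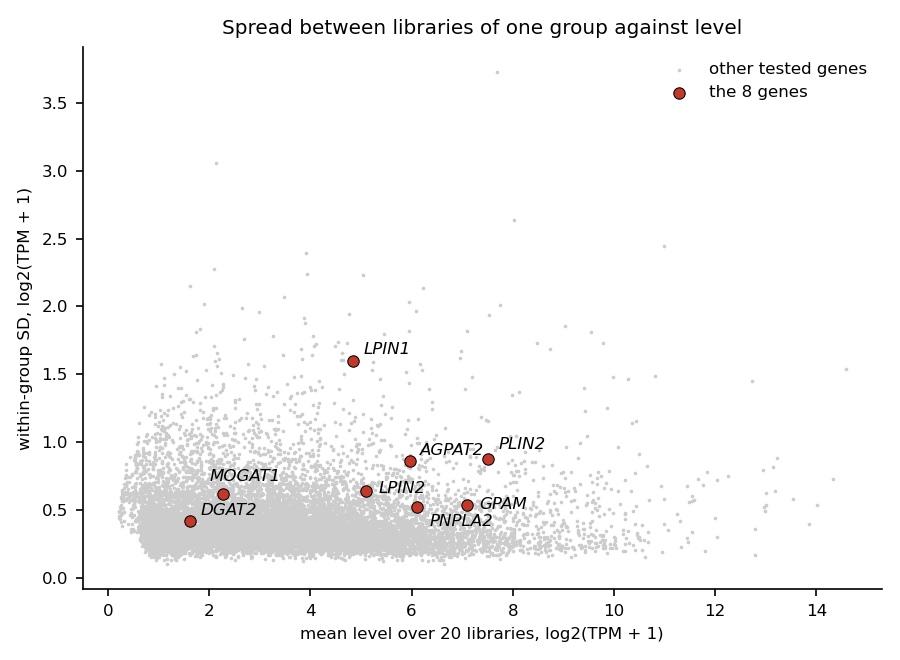
Within-group SD of log2(TPM + 1) (vertical axis) against mean level over the 20 libraries (horizontal axis) for the 12808 tested genes in grey and the 8 genes in red. LPIN1, at an SD of 1.60, lies above most genes, while AGPAT2 (0.86) and PLIN2 (0.87) lie above 95.02% and 95.27% of them.

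MOGAT1 (chromosome 9, 7695350 to 7717563), which acylates monoacylglycerol, had its highest group mean at week 50 with high laying. The 4 libraries there had 11.7, 4.75, 7.94 and 8.67 TPM, against 3.75, 3.27, 2.25 and 3.01 TPM at week 32. These groups did not overlap, nor did those of DGAT2, so 2 of 8 genes were separated in this direction (background 7.19%). The difference was 1.14 ± 0.40 (unadjusted p = 0.0108, adjusted p = 0.374 with limma), the median of all genes was 0.13, and after median-ratio scaling MOGAT1 differed by 1.01. MOGAT1 was 1 of 8 with an unadjusted p under 0.05 as higher (background 8.49%), with 0 of 8 called (background 0%).

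Compared with week 50 high layers, MOGAT1 in week 72 high layers was split, with 1.12, 8.07, 3.64 and 1.17 TPM. Replicate 2 lay within the week 50 range and the other 3 below it, so the groups overlapped. The difference of -1.26 ± 0.40 had the smallest p of the 8 genes in all comparisons (unadjusted p = 0.00583, adjusted p = 0.910 with limma), where 4.01% of genes had an unadjusted p under 0.05 as lower and 0% were called. Markers of other cells also differed here. In high layers the T cell sum was 111.2 to 179 TPM at week 50 and 53.8 to 130.8 TPM at week 72. The sum of 4 of 5 erythroid markers was 192 to 291 TPM against 667 to 948 TPM, without overlap. The share of single genes separated between these groups is not given here. The part of these cells in the MOGAT1 values was not tested. Week 50 low layers had 3.67, 2.79, 3.79 and 6.31 TPM and week 72 low layers 1.75, 6.15, 3.27 and 1.55 TPM. The laying difference was 0.84 ± 0.40 at week 50 (interval -0.01 to 1.68, unadjusted p = 0.0529) and -0.04 ± 0.40 at week 72 (interval -0.88 to 0.81). By mean the order was week 50 high (8.25 ± 2.84 TPM), week 50 low (4.14 ± 1.51), week 72 high (3.50 ± 3.26), week 72 low (3.18 ± 2.12) and week 32 (3.07 ± 0.627), and week 50 high stood above its neighbour by more than the larger SD.

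Markers of several cell types were also higher at week 50 with high laying than at week 32. The sum of 5 of 5 T cell markers was 51.7 to 66.0 TPM at week 32 and 111.2 to 179 TPM at week 50 with high laying, without overlap, and that of 6 of 6 macrophage or Kupffer cell markers was 1660 to 2179 TPM against 2209 to 3782 TPM. The sum of 6 of 6 fat cell markers was 42.0 to 114.9 TPM against 122.4 to 455.8 TPM. Most of this sum was CIDEC, PLIN4 and PLIN1 (medians 50.7, 46.8 and 19.6 TPM over the 20 libraries). These genes are also in the droplet coat part of the wider pathway list. ADIPOQ, FABP4 and LPL had medians of 0.654, 0.872 and 0.372 TPM. Of single genes tested, 7.19% were separated in this direction. Over the 20 libraries MOGAT1 had rho = 0.47 with the T cell sum, 0.48 with the macrophage or Kupffer sum and 0.24 with the fat cell sum. With group means removed, which also takes out the difference between these groups, these were 0.23, 0.09 and -0.07. Their part in the MOGAT1 values was not tested.

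DGAT2 (chromosome 1, 195692409 to 195708598), which completes triglyceride, had between 0.915 and 2.95 TPM in 19 libraries and 8.92 TPM in week 50 low replicate 3. The other week 50 low libraries had 2.27, 2.42 and 2.95 TPM, and week 50 high had 2.86, 1.87, 2.46 and 2.09 TPM. Week 72 low had 0.915, 2.29, 1.86 and 1.65 TPM, week 72 high 1.21, 1.98, 2.77 and 1.11 TPM, and week 32 1.71, 1.28, 1.55 and 1.68 TPM. All 4 libraries of week 50 high thus lay above all 4 of week 32, a separation seen in 7.19% of all genes tested. So did those of week 50 low, but that pair of groups was not tested and its share over all genes was not counted. In low layers, week 72 minus week 50 gave -0.80 ± 0.29 (unadjusted p = 0.0124, adjusted p = 0.391 with limma). Without week 50 low replicate 3 this was -0.43. The high minus low difference was -0.47 ± 0.29 at week 50 (interval -1.08 to 0.13) and 0.03 ± 0.29 at week 72 (interval -0.57 to 0.64). Mean levels were 4.14 ± 3.20 TPM in week 50 low, 2.32 ± 0.434 in week 50 high, 1.77 ± 0.773 in week 72 high, 1.68 ± 0.576 in week 72 low and 1.55 ± 0.196 in week 32, and neighbours did not differ beyond the larger SD.

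The library with the highest DGAT2 level also had the highest sums of several immune and blood markers: 212 TPM for T cells, 4941 TPM for macrophages or Kupffer cells, 1254 TPM for 4 of 5 B or plasma cell markers and 3798 TPM for 4 of 5 erythroid markers. Over the 20 libraries DGAT2 had a Spearman rho of 0.68 with the macrophage or Kupffer sum and 0.58 with the T cell sum (0.62 and 0.52 after group means were removed). The largest part of the macrophage or Kupffer sum was CD74, with a median of 1361 TPM beside 307 TPM for MARCO, the next highest. The part of other cells in the DGAT2 values was not tested. At a level this low, the log2(TPM + 1) scale also understates a difference.

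PLIN2, the droplet coat protein of liver (chromosome Z, 34056394 to 34070493), had its highest group means in low layers at both ages. At week 72 it had 418, 97.5, 291 and 347 TPM in low replicates 1 to 4 and 94.2, 150.2, 155 and 116 TPM in high layers. Low replicates 1, 3 and 4 lay above all high libraries and replicate 2 among them. Low replicate 3 had a high VTG2 level and low replicates 1, 2 and 4 a low one. The relation of PLIN2 to VTG2 was not tested. The difference was -0.998 ± 0.56 (interval -2.16 to 0.16, unadjusted p = 0.0880, adjusted p = 0.982 with limma).

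At week 50, PLIN2 had 257, 614, 388.5 and 161 TPM in low layers and 131, 180.0, 188 and 152 TPM in high layers. Low replicates 1 to 3 again lay above all high libraries and replicate 4 among them. The difference of -0.96 ± 0.56 (interval -2.13 to 0.20) had an unadjusted p = 0.0983 and an adjusted p = 1 with limma. The laying difference of PLIN2 differed between ages by -0.03 ± 0.79 (interval -1.68 to 1.61). Week 32 had 25.7, 190.1, 178 and 219 TPM, and replicate 1 was the lowest of all 20 libraries. Mean levels were 355 ± 196 TPM in week 50 low, 288 ± 137 in week 72 low, 163 ± 26.3 in week 50 high, 153 ± 86.7 in week 32 and 129 ± 28.8 in week 72 high, and neighbours did not differ beyond the larger SD.

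PNPLA2, the lipase (chromosome 5, 15350110 to 15376279), had the lowest coefficient of variation of the 8 genes over the 20 libraries, 40.1%, with levels from 35.8 to 155 TPM. Its mean levels were 86.5 ± 50.3 TPM in week 50 low, 81.7 ± 22.8 in week 32, 76.4 ± 26.2 in week 72 low, 59.6 ± 19.6 in week 50 high and 56.4 ± 14.4 in week 72 high, with all neighbours overlapping. The high minus low difference was -0.41 ± 0.34 at week 50 (interval -1.12 to 0.31) and -0.42 ± 0.34 at week 72 (interval -1.13 to 0.30). PLIN2 exceeded PNPLA2 in 19 of 20 libraries, and their ratio ranged from 0.309 in week 32 replicate 1 to 12.2 in week 50 low replicate 2.

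**Figure D3:**
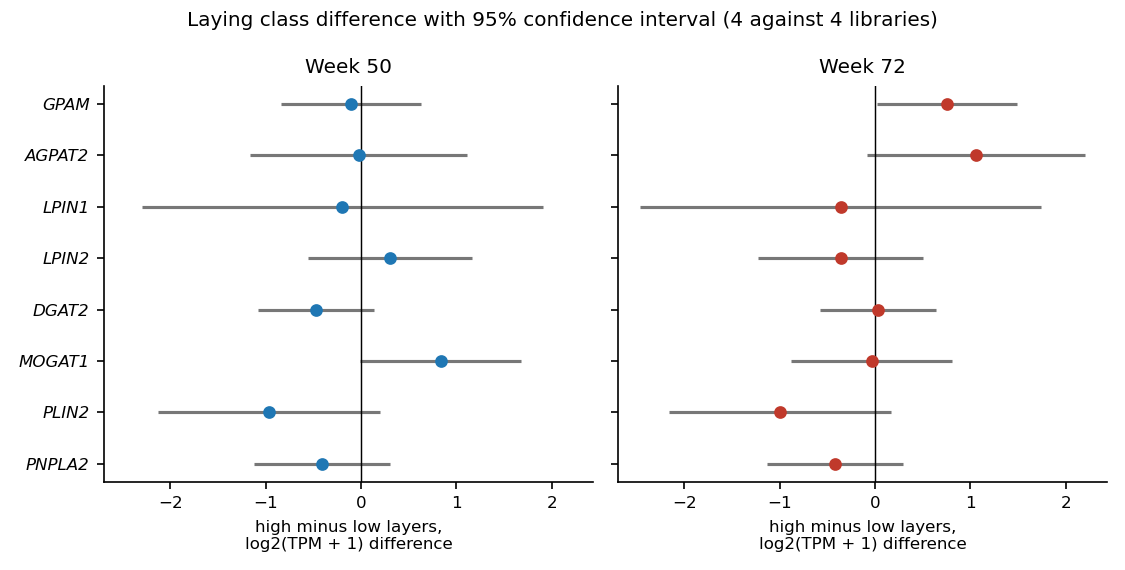
High minus low difference on the log2(TPM + 1) scale (horizontal axes) for each of the 8 genes at week 50 and week 72, with 95% confidence intervals from the fit over 20 libraries. PLIN2 lies near -1 at both ages with intervals that reach past 0, and the interval of GPAM at week 72 runs from 0.02 to 1.49.

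Counted by comparison, 0 of 8 genes were called between laying classes at week 50 (background 0%), and 0 of 8 had an unadjusted p under 0.05 (background 2.97%). At week 72, 0 of 8 were called (background 0.00781%) and 1 of 8, GPAM, had an unadjusted p under 0.05 as higher (background 3.65%) and 0 as lower (background 1.62%). The median difference of the 8 was -0.15 at week 50 and -0.20 at week 72, beside 0.05 and 0.03 over all genes. For the change of the laying difference with age, 0 of 8 were called (background 0%) and 0 of 8 had an unadjusted p under 0.05 (background 2.37%).

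Between week 50 and week 72 in low layers, 3 of 8 had an unadjusted p under 0.05 as lower (background 6.6%) and 0 of 8 were called (background 0.039%). These were DGAT2, given above, GPAM with -0.91 ± 0.35 (unadjusted p = 0.0186, adjusted p = 0.466) and AGPAT2 with -1.32 ± 0.55 (unadjusted p = 0.0258, adjusted p = 0.504), all with limma. Their groups overlapped, and GPAM gave -0.46 without week 50 low replicate 2. AGPAT2 gave -1.90 without week 72 low replicate 3. In high layers the only gene of the 8 with an unadjusted p under 0.05 was MOGAT1. From week 32 to week 72 high, 0 of 8 were called (background 0.00781%) and 0 of 8 had an unadjusted p under 0.05 (background 5.22%), with GPAM nearest at 0.57 ± 0.35 (unadjusted p = 0.123). Comparisons that share a group share its libraries and are not independent of each other.

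Averaged over both ages, a comparison added after the values were seen, PLIN2 differed by -0.98 ± 0.39 between high and low layers (SE, 8 libraries per class; interval -1.80 to -0.16). Its unadjusted p was 0.0216 and its adjusted p 0.680 with limma, so it was not called. It was the 1 gene of the 8 with an unadjusted p under 0.05 in this comparison (background 6.43%), and 0 of 8 were called (background 0.00781%). Of the 8 low libraries, 6 lay above every high library of their own age. This count restates the same PLIN2 values, and the share of all genes that reach it was not counted. Of the 50 tested genes of the wider pathway list, 0 were called in this comparison. With limma, 5 had an unadjusted p under 0.05 as higher in high layers and 1 as lower (background 6.43% in either direction). Higher were the droplet genes PLIN1 and CIDEA, with GPD1, AGPAT3 and CDS1, and lower was SREBF1.

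The 8 genes did not move as one. Of the 28 pairs, 3 had a Spearman rho over 0.5 over the 20 libraries. DGAT2 and MOGAT1, relatives in the same acyltransferase family, had rho = 0.72, LPIN2 and PNPLA2 0.64, and LPIN1 and LPIN2 0.63. With group means removed these were 0.63, 0.76 and 0.70, so the likeness was present among libraries of one group. Among the 12807 other tested genes, DGAT2 ranked 32 by rho with MOGAT1 and MOGAT1 ranked 175 with DGAT2. LPIN2 ranked 81 with PNPLA2 and PNPLA2 ranked 177 with LPIN2, while LPIN1 ranked 204 with LPIN2 and LPIN2 ranked 228 with LPIN1. GPAM and AGPAT2, which catalyse consecutive steps, had rho = 0.20, and each went opposite to PNPLA2 (-0.47 for both). PLIN2 and PNPLA2 had rho = 0.31. These values describe libraries that share their composition and carry no test.

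**Figure D4:**
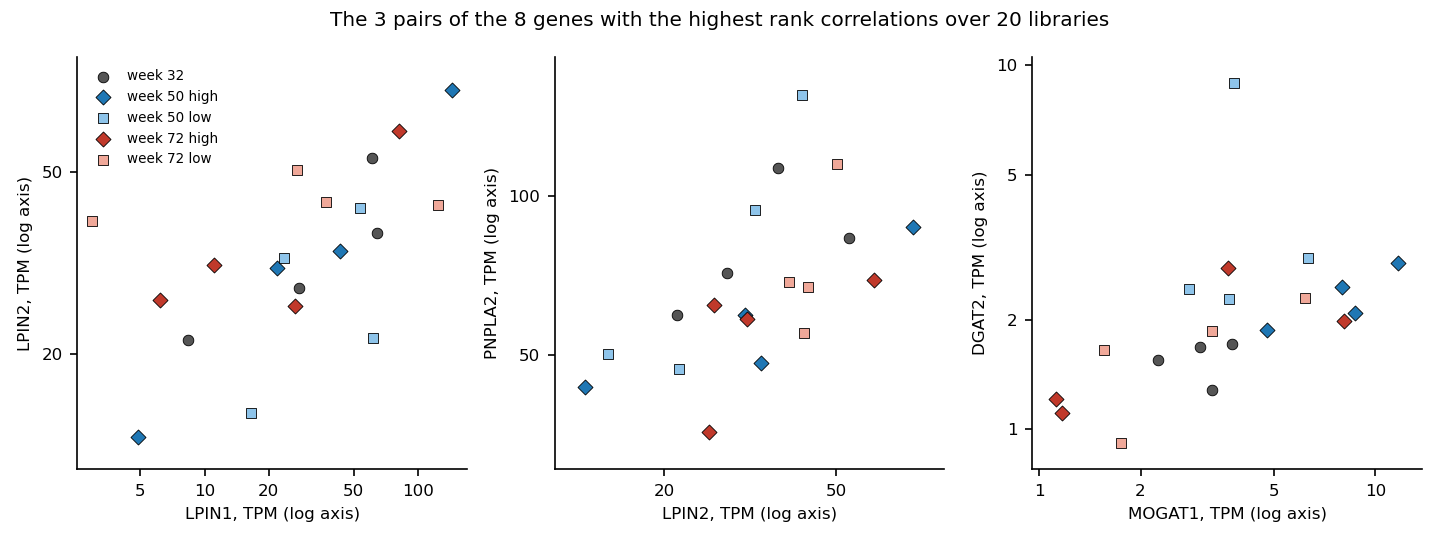
TPM of LPIN1 against LPIN2, LPIN2 against PNPLA2 and MOGAT1 against DGAT2 in the 20 libraries (both axes logarithmic, symbols by group). Each pair goes up together with rho of 0.63, 0.64 and 0.72, and week 50 low replicate 3 stands above the rest for DGAT2.

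Endothelial markers went with the lipins: the sum of 5 of 5 had rho = 0.80 with LPIN2 and 0.54 with LPIN1, and 0.75 and 0.55 with group means removed. This sum ranged from 51.1 to 120.1 TPM in week 50 high and from 95.7 to 127 TPM in week 72 low. Stellate or fibroblast markers (5 of 5) had rho = 0.63 with LPIN1 and 0.48 with LPIN2, and 0.60 and 0.52 with group means removed. Cholangiocyte markers (4 of 5) had rho = 0.47 with LPIN1 and 0.42 with LPIN2, and 0.59 and 0.61 with group means removed. Whether other cells have a part in these values was not tested.

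Genes outside the 8 that followed each of them most closely were found by Spearman rho over the 20 libraries among tested genes with a symbol. For GPAM they were ATG4C (0.84), PEX7 (0.82) and MRPS33 (0.80). AGPAT2 was followed by SLC26A9 (0.87), FAM20CL (0.87) and FABP3 (0.87), LPIN1 by BICC1 (0.87), FXR1 (0.85) and CREM (0.84), and LPIN2 by IL31RA (0.84), ADD3 (0.84) and USP53 (0.84). The closest genes to DGAT2 were TAPBP (0.88), RFX5 (0.86) and UBE2L6 (0.86), and those to MOGAT1 were TMEM199 (0.83), SERGEF (0.82) and KCNN1 (0.80). PLIN2 had TAGLN2 (0.82), DDX20 (0.82) and NKRF (0.81), and PNPLA2 had NOTCH2 (0.82), STARD8 (0.82) and IPMK (0.80). The best match lay between 0.82 and 0.88 for every one of the 8. Each was picked as the highest of 11051 ranked genes over 20 libraries, and that choice by itself raises the rho. After median-ratio scaling, 17 of these 24 genes were still within the first 10 and 7 were not, with PEX7 at rank 61 for GPAM (rho = 0.61), KCNN1 at rank 45 for MOGAT1 (0.66) and DDX20 at rank 20 for PLIN2 (0.70). With group means removed, rho for the 24 ran from 0.50 (PEX7 with GPAM) to 0.91 (FXR1 with LPIN1). MRPS33 then had 0.54 with GPAM, IPMK 0.56 with PNPLA2 and TAGLN2 0.60 with PLIN2.

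The wider pathway held 67 listed genes, of which 56 were in the table and 50 were tested. No gene of the 50 was called in any comparison (0), and 5 had an unadjusted p under 0.05 as higher at week 72 in high layers and 0 as lower (backgrounds 3.65% and 1.62%). One was the droplet coat gene PLIN1, at 33.6 ± 6.68 TPM in high layers (SD, n = 4) against 11.5 ± 9.80 TPM in low layers (log2 difference 1.85 ± 0.63, adjusted p = 0.762 with limma). Its 4 high libraries (27.9 to 41.7 TPM) lay above the 4 low ones (3.17 to 23.7 TPM). PNPLA3, a lipid droplet hydrolase related to PNPLA2, had 365 ± 140 TPM in high layers against 164 ± 155 TPM, with overlap. LIPE, hormone-sensitive lipase, had 4.04 ± 1.23 against 2.20 ± 0.668 TPM without overlap. At week 50 the log2 difference went the other way, at -0.89 ± 0.54 for PNPLA3 and -0.26 ± 0.26 for LIPE. For the change of the laying difference with age, they were the 2 of 50 with an unadjusted p under 0.05 (background 2.37%). The others of the 5 at week 72 were GPD1, which makes glycerol phosphate (64.3 ± 18.5 against 25.8 ± 18.4 TPM), and PEMT, which makes phosphatidylcholine by methylation (769.8 ± 55.9 against 524 ± 140 TPM). PEMT was also without overlap, as was ACSL5 (unadjusted p = 0.216 with limma). Such separation in this direction was seen in 1.94% of all genes tested.

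By step of the pathway, genes with an unadjusted p under 0.05 as higher in high layers at week 72 were counted (background 3.65%). The counts were 1 of 8 for supply of glycerol phosphate and acyl-CoA and 0 of 8 for other acylation and phosphatidate steps. They were 1 of 9 for droplet coat and biogenesis, 2 of 9 for lipolysis, 1 of 8 for the phospholipid branch and 0 of 8 for transcription factors. In the same order the median log2 differences were 0.25, 0.17, 0.15, 0.20, 0.26 and -0.11, beside 0.03 over all genes. At week 50, 1 of 50 had an unadjusted p under 0.05 between laying classes (background 2.97%, so no more than over all genes), the droplet protein gene CIDEA, with 267 ± 72.8 TPM in high layers against 164 ± 37.0 TPM. In low layers 5 of 50 were under this threshold as lower at week 72 than at week 50 and 1 as higher (backgrounds 6.6% and 1.93%). From week 32 to week 50 high, 10 of 50 were under it as higher and 0 as lower (backgrounds 8.49% and 1.53%). Among these AGPAT3, a relative of AGPAT2, had 27.9 ± 8.88 TPM at week 32 and 65.0 ± 20.9 TPM at week 50 high, without overlap. SREBF1, which drives lipogenic genes, had 16.1 ± 2.09 against 26.8 ± 5.45 TPM, also without overlap. Such separation in this direction was seen in 7.19% of all genes tested.

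Other genes of the wider pathway ranged from high levels to nearly none. AWAT1, a wax alcohol acyltransferase of the DGAT2 family in mammals, averaged 151 TPM over the 20 libraries (lowest 86.9, highest 216.9), the droplet enzyme HSD17B13 averaged 639.5 TPM (lowest 442.1) and G0S2, an inhibitor of PNPLA2 in mammals, averaged 346 TPM with a range of 32.8 to 943 TPM. MOGAT2 was listed at 0 in 19 of 20 libraries and averaged 0.00264 TPM. AGPAT1 averaged 0.0682 TPM and PLIN3 0.0782 TPM.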

How the data were processed

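Per the labels' protocols, total liver RNA went into mRNA-enriched libraries. The authors deposited 1 table of TPM values for 21749 genes in 20 libraries, a unit relative to transcript length and to the library's whole. The submitters' processing notes name the build GRCg7b; aligner, counter, annotation and filters were not given in the sources used here. Since TPM keeps no absolute depth, counting error is unknown and no count model was used. RefSeq symbols of GRCg7b matched 20888 of the 21749 genes and all 8 members, and gave the coordinates.

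Groups and replicate numbers came from the titles. The test took genes reaching 1 TPM in 4 or more libraries. Group means were fitted to log2(TPM + 1) with limma 3.58.1 in R 4.3.3 (mean-variance trend, two-sided, 15 residual degrees of freedom), adjusted over all 12808 genes and called at 0.05. Its SE pools the spread of all 5 groups. The script was tested on simulated data. The members, lists and libraries named as least alike were chosen with earlier results of these data known. Named were all 8 members, up to 4 genes per pathway step by p over the groups, and the 3 genes closest to each member by rank correlation. G0S2, AWAT1, HSD17B13, MOGAT2, AGPAT1 and PLIN3 were picked once values were known. The comparison averaged over both ages was added after seeing the data. Alternatives were another pseudocount, filters, median-ratio scaling, fits of the compared groups only, a replicate block and leaving out libraries. Replicate numbers were not taken as pairs.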

Additional observations from a re-analysis of the deposited data

Results flagged for a closer look

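In 40 sets of 4 libraries (8 genes in 5 groups, on the log2 scale), 3 had 1 library far from the other 3 of its group, where chance gives about 1 in 20. AGPAT2 had 157 TPM in week 50 high replicate 1, against 57.5 to 66.2 TPM in the other 3. DGAT2 had 8.92 TPM in week 50 low replicate 3, against 2.27 to 2.95 TPM. PLIN2 had 25.7 TPM in week 32 replicate 1, against 178 to 219 TPM. The first 2 of these libraries are among the 3 least like the others, and the third, week 32 replicate 1, had a median correlation of 0.943.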

How the results depend on the processing

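The number of the 8 genes called stayed at 0 in all 8 comparisons, and over the 5 groups, under every alternative run: a pseudocount of 0.1, no filter, a filter of 5 TPM (which left DGAT2 out), median-ratio scaling, only the compared groups in the fit, the replicate block, leaving out the 3 least similar libraries and leaving out each library in turn. With the replicate block the count was likewise 0. Replicate numbers come from the titles and no label ties them to a shared animal or day. Deviations from the group means correlated at -0.270 to 0.280 for same-numbered libraries (median 0.0277, 14 of 40 pairs over 0.1) and at -0.305 to 0.359 for the others (median -0.0097, 19 of 120 over 0.1), and 11 of 20 libraries correlated best with one of their own number. Same-numbered pairs were thus over 0.1 in a larger share than the others. They were also the best match more often than their share of all pairs, 40 beside 120 others. The SE and p-values of the main fit take no account of this. As no label gives the numbers a meaning, they were not taken as pairs, and a factor shared by them was not tested. Counts over all genes moved: from 1 to between 0 and 63 for laying at week 72, from 5 to between 0 and 95 for week 72 against week 50 in low layers, and from 1 to between 0 and 58 over the 5 groups, each highest without week 72 low replicate 3.

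Some small differences changed sign. The log2 difference for DGAT2, high minus low laying, week 72, was -0.00557 after median-ratio scaling. Without the 3 least similar libraries, LPIN1 at week 50 was 0.43 and MOGAT1 at week 72 was 0.26. Leaving out 1 library gave -0.36 to 0.12 for AGPAT2, -0.35 to 0.34 for GPAM, -0.94 to 0.59 for LPIN1 and -0.10 to 0.71 for LPIN2 at week 50, and -0.13 to 0.15 for DGAT2, -1.28 to 0.38 for LPIN1 and -0.46 to 0.26 for MOGAT1 at week 72. The cause was not tested. PLIN2 kept its sign throughout, from -1.29 to -0.65 at week 50 and from -1.45 to -0.76 at week 72. So did PNPLA2, from -0.64 to -0.07 at week 50 and from -0.55 to -0.21 at week 72. DGAT2 and MOGAT1 at week 50 and GPAM, AGPAT2 and LPIN2 at week 72 also kept theirs. TPM keeps no depth, so the precision of low genes such as DGAT2 is unknown.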

Other observations

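Among week 72 low layers, the lipogenic transcripts FASN and SCD followed PLIN2 only in part. FASN, fatty acid synthase, had 90.6, 31.4, 369.9 and 392.2 TPM in low replicates 1 to 4, and SCD, stearoyl-CoA desaturase, had 22.9, 26.5, 1458 and 359 TPM. Replicate 1 thus had the highest PLIN2 of its group, 418 TPM, with SCD at its lowest, while replicate 2 was low for PLIN2, FASN and SCD alike. MTTP, which loads triglyceride onto lipoprotein particles, had 72.6, 67.9, 54.8 and 56.9 TPM in the same libraries.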
